A study of Oryza sativa Japonica Group with 29 samples.

Results

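The 150 loci described here are those whose transcripts fell most in rice roots after drought in both genotypes of the study. They were chosen by their TPM values in all 11 RNA libraries, from 55986 listed loci. For each locus the group means of log2(TPM + 1) were compared between drought and normal roots, once in plants over-expressing OsNMCP1 and once in wild type. TPM is a transcript level scaled for transcript length and for the library's total. The smaller of the 2 falls was kept, and the 150 loci with the largest such fall were taken. Both drought differences therefore chose the loci, and they are given below as a description with no test.

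RNA was sequenced from roots of hydroponic rice seedlings (Oryza sativa Japonica Group) aged 25 days, at the stage of 4 leaves. The groups were OsNMCP1-OE after drought (OE drought, 3 libraries), ZH11-WT after drought (WT drought, 3), OsNMCP1-OE in normal conditions (OE normal, 2) and ZH11-WT in normal conditions (WT normal, 3). ZH11 is the cultivar used as wild type, and OsNMCP1 is a plant protein likened to the lamins that line the nucleus. Drought was 3 h without water supply before sampling. The labels name neither the promoter of the transgene nor the number of OE lines, and they do not say whether plants were pooled.

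Roots that lose water close down growth and uptake and turn to stress programmes, and many transcripts needed for growth in water are lost quickly. The loci named here include a clock gene, non-symbiotic hemoglobins, small heat shock proteins, enzymes of nitrate use and of plastid metabolism, and wall proteins. Non-symbiotic hemoglobins bind oxygen tightly, scavenge nitric oxide and are known from flooded or oxygen-poor plant tissue. Small heat shock proteins hold unfolded proteins, expansins loosen cell walls during elongation, and laccases oxidise phenolic compounds in the wall.

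The over-expressed gene followed its labels, at 347 to 452 TPM in OE drought, 28.1 to 46.4 in WT drought, 167 to 184 in OE normal and 35.5 to 37.6 in WT normal. The 6 drought libraries carry genomic DNA as molecule in their labels, but RNA sequencing in their titles, which was followed here. Drought and normal RNA libraries also stand in separate runs of sample numbers. Any other difference between those sets of libraries therefore cannot be told apart from drought. The deposited values imply 5.79 to 12.0 gigabases per library, and 20110 to 21812 loci reached 1 TPM. The third WT drought library (WT drought replicate 3) was the least like its group, with Pearson correlations of 0.9274 and 0.9439 across tested loci to the other WT drought libraries, against 0.9816 between those. Of 4 root markers (LSI1, LSI2, SHR1, SCR1) none was listed at 0 in any library. The replicates are called biological, with nothing said of separate cultures, and each p-value covers only the spread of these libraries, which may be technical.

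Summed over the 150 loci, transcripts made up 0.0622, 0.0501 and 0.0744% of all TPM in the OE drought libraries and 0.152, 0.137 and 0.0994% in the WT drought libraries. In normal roots they made up 1.40 and 1.45% in OE and 1.49, 1.43 and 1.51% in WT. Drought libraries of both genotypes lay far below every normal library, and all OE drought libraries lay below all WT drought libraries. Because roots were measured in bulk, fewer cells of a type and less RNA per cell cannot be told apart.

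At single loci, a median of 4.05% of the normal mean TPM was left in OE drought (0.121 to 17.2%) and 8.19% in WT drought (0 to 18.9%). The mean drought level was at or under 10% of normal at 128 loci in OE, at 100 in WT and at 86 in both. All 150 loci were lower in all 6 drought libraries than in all 5 normal ones, as were 40.7% of the 23699 loci tested (at least 1 TPM in at least 2 libraries, which all 150 passed). The limma test called 68.4% of tested loci after drought in OE (49.0% lower, 19.5% higher) and 64.3% in WT (44.4% lower, 20.0% higher), and all 150 were lower in both, a count that the choice of loci fixes.

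The median difference in log2(TPM + 1) was -3.81 in OE and -3.26 in WT, beside -0.56 and -0.35 over all loci tested. Median-ratio scaling moved the medians of all loci tested to -0.02 in both genotypes, and the medians of the 150 to -3.33 in OE and -2.91 in WT. The difference was more negative in OE at 100 of the 150 loci (66.7%), close to the 65.3% of all loci tested and below the 69.4% of the other loci at or above the lowest member's level in normal roots. It was more negative in OE by over 1 at 44 (29.3%, beside 12.5% of all loci tested) and in WT by over 1 at 6 (4.0%, beside 6.49%). Over the other loci at or above the lowest member's level these shares were 14.3% and 3.94%, the second close to that of the 150. At 68 loci (45.3%, beside 53.9%) both differences lay within 0.5 of each other. The last locus inside the choice, LOC_Os01g64120, had a smaller fall of -2.81, and the first outside, LOC_Os05g32460, also had -2.81.

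**Figure D1:**
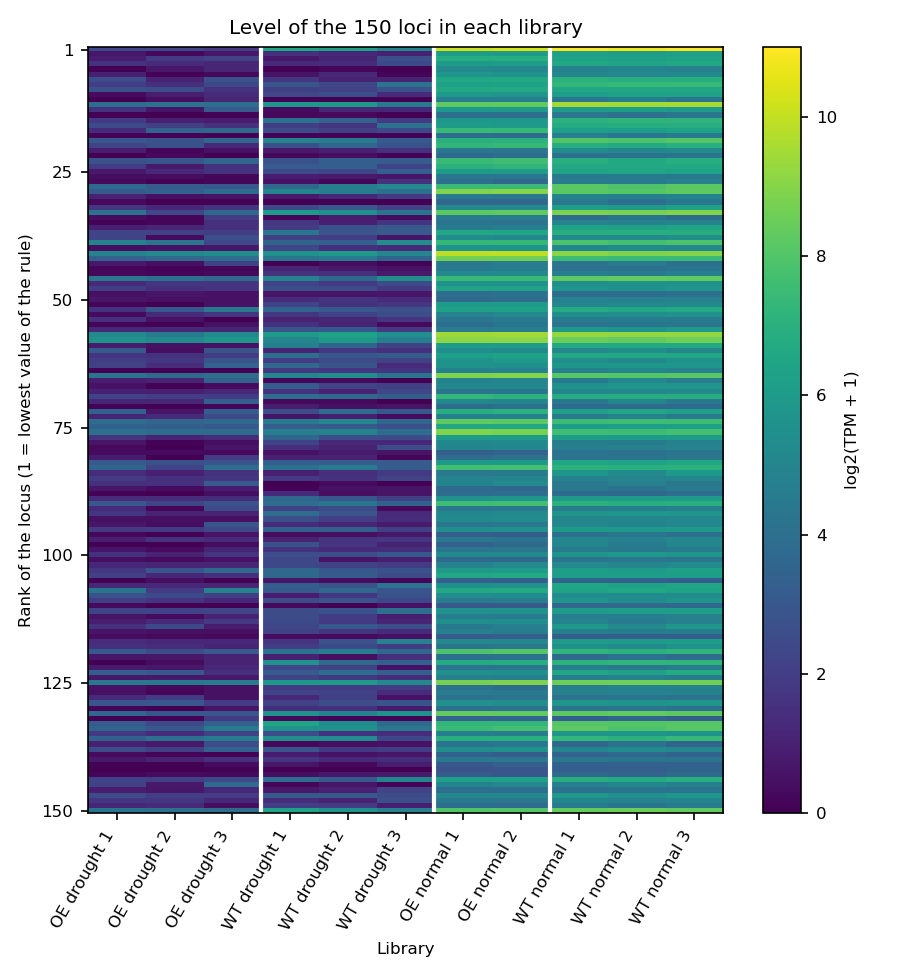
Level as log2(TPM + 1) of the 150 loci (rows, by rank in the rule) in each of the 11 libraries (columns). All drought libraries are darker than all normal libraries at every row, and single bright rows are the loci with the highest levels in normal roots.

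**Figure D2:**
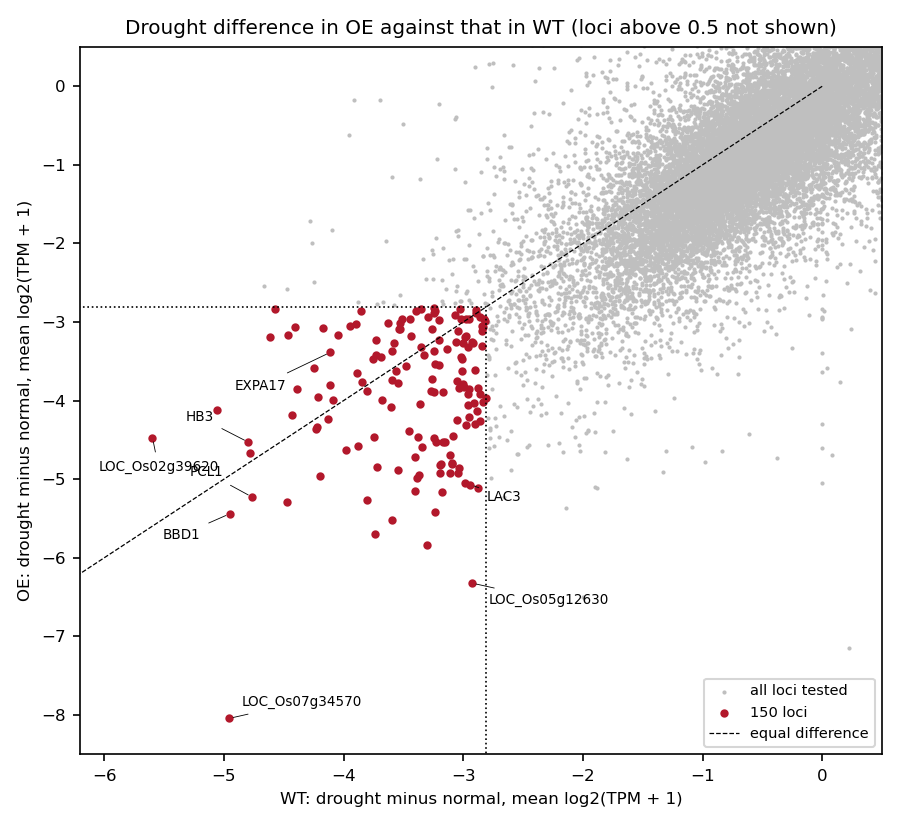
Difference of drought from normal in OE (vertical axis) and in WT (horizontal axis), as mean log2(TPM + 1), for the 150 loci (red) and the loci tested (grey). Dotted lines mark the last value inside the choice, -2.81, and 66.7% of the red points lie below the dashed line of equal difference, beside 65.3% of all loci tested.

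When a library was left out of the choice, 124 to 146 of the 150 loci were chosen again. In the library left out, the 150 loci then chosen had a median difference between drought and normal of -3.95 to -3.57 for the OE libraries and -3.33 to -3.07 for the WT libraries. Over all loci tested these medians were -0.604 to -0.455 for the OE libraries and -0.454 to -0.277 for the WT libraries. In the left-out library 147 to 150 of the chosen loci differed by more than 1. The highest difference was 0.294 in OE drought replicate 3 and 0.218 in WT drought replicate 3. Libraries of the opposite condition had entered the choice, so only 1 side of each difference was new. The overlap was lowest, 124, without WT drought replicate 3.

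The locus with the largest shared fall was LOC_Os07g34570, which also had the highest level of the 150 in normal roots. It reached 4.18, 4.28 and 2.76 TPM in OE drought, and 94.5, 77.3 and 31.1 TPM in WT drought. In normal roots it had 1156 and 1323 TPM in OE and 1995, 1813 and 1991 TPM in WT. The 4 groups did not overlap, and OE was below WT in both conditions. The locus is on chromosome 7, 20724563 to 20726098, on the plus strand, in the coordinates of the files, whose build is not given in the sources used here.

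The files pair no names with identifiers, and 12 of the 150 loci could be given an accepted gene name. BBD1 (LOC_Os01g50622, chromosome 1, 29072766 to 29076344), a bifunctional nuclease, had rank 2. It stood at 0.652, 0.164 and 0.572 TPM in OE drought, at 1.76, 1.43 and 1.01 in WT drought, at 64.7 and 59.2 in OE normal and at 73.4, 71.5 and 72.9 in WT normal. The OE libraries were the lower ones in each condition, without overlap. The difference of OE from WT was -0.72 after drought (SE 0.20, adjusted p = 0.0567, limma) and -0.23 in normal conditions (SE 0.05, adjusted p = 0.0223). The second call was lost without OE normal replicate 2 or WT normal replicate 1 or 3 (adjusted p up to 0.0787).

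PCL1 (LOC_Os01g74020, chromosome 1, 42874207 to 42875515) had rank 3. Its Arabidopsis counterpart is a transcription factor of the evening complex of the circadian clock. It stood at 0.772, 2.69 and 3.38 TPM in OE drought, at 0.681, 1.22 and 5.49 in WT drought, at 112 and 116 in OE normal and at 80.0, 73.2 and 80.4 in WT normal. The drought groups overlapped and differed by 0.08 (SE 0.57, adjusted p = 0.933). In normal roots PCL1 was higher in OE by 0.54 (SE 0.05, adjusted p = 0.00262). Of 7 other clock genes tested, 2 were higher and 2 lower after drought in OE, and 3 were higher and 3 lower in WT. Among them CCA1, a morning-phase transcription factor, averaged 206 TPM in OE drought and 65.1 in WT drought, against 3.55 in OE normal and 4.40 in WT normal. PRR1, a pseudo-response regulator, averaged 7.54 TPM in OE drought and 15.4 in WT drought, against 56.0 in OE normal and 53.1 in WT normal.

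The non-symbiotic hemoglobin genes HB3 (LOC_Os03g13150) and HB4 (LOC_Os03g13160) had ranks 5 and 11 and lie next to each other on chromosome 3, at 7096670 to 7097510 and 7100048 to 7101570, on the plus strand. HB3 was listed at 0, 0.616 and 1.28 TPM in OE drought and 0, 0.122 and 0 in WT drought, against 36.0 and 33.3 TPM in OE normal and 27.1, 30.3 and 26.5 in WT normal. HB4 was listed at 0, 0.345 and 1.28 TPM in OE drought and 0, 0.0416 and 0 in WT drought, against 25.5 and 25.5 TPM in OE normal and 18.9, 25.6 and 18.7 in WT normal. Both were near the lower end of the scale in every drought library, and a value of 0 can be a failed estimate.

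Between genotypes, HB3 differed by 0.57 after drought (SE 0.29, adjusted p = 0.197) and by 0.30 in normal conditions (SE 0.08, adjusted p = 0.036), a call that was lost without any 1 of 4 normal libraries (all but WT normal replicate 2, adjusted p up to 0.158). HB4 differed by 0.52 (adjusted p = 0.233) and 0.28 (adjusted p = 0.214). How reads were split between these near copies is not known, so their values are uncertain between each other.

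Of 6 other low oxygen genes tested, 3 rose and 2 fell after drought in OE, and 5 fell in WT. The hemoglobin gene HB1 lay outside the choice, with a smaller fall of -2.74 (rank 179), at 164, 165 and 302 TPM in OE drought and 139, 138 and 91.7 in WT drought, against 1509 and 1219 TPM in OE normal and 1790, 1811 and 1779 in WT normal. PDC2, a pyruvate decarboxylase of ethanol fermentation, averaged 306 TPM in OE drought and 141 in WT drought, against 272 in OE normal and 432 in WT normal.

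Among small heat shock proteins, HSP18.0 (LOC_Os01g08860, chromosome 1, 4449032 to 4449876) and HSP24.1 (LOC_Os02g52150, chromosome 2, 31920854 to 31922712) were among the 150. HSP18.0 stood at 14.9, 16.8 and 14.9 TPM in OE drought and 53.2, 57.3 and 21.9 in WT drought, against 307 and 313 TPM in OE normal and 735, 715 and 733 in WT normal. HSP24.1 stood at 6.82, 5.80 and 11.5 TPM in OE drought and 30.1, 21.5 and 7.59 in WT drought, against 127 and 127 TPM in OE normal and 257, 239 and 266 in WT normal. In normal roots both were lower in OE, with a difference of -1.23 for HSP18.0 (SE 0.04, adjusted p = 0.000167) and -0.99 for HSP24.1 (SE 0.05, adjusted p = 0.000713).

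After drought the genotypes did not overlap at HSP18.0, and the difference was -1.34 (SE 0.36, adjusted p = 0.0517), while at HSP24.1 they overlapped and differed by -1.06 (SE 0.50, adjusted p = 0.176). For both, WT drought replicate 3 was the lowest of its group. Of 31 other heat shock proteins and factors tested, 9 were higher and 12 lower after drought in OE, and 4 were higher and 17 lower in WT. HSP23.2, another small heat shock protein, averaged 1.50 TPM in OE drought and 20.1 in WT drought, against 32.0 in OE normal and 55.8 in WT normal.

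**Figure D3:**
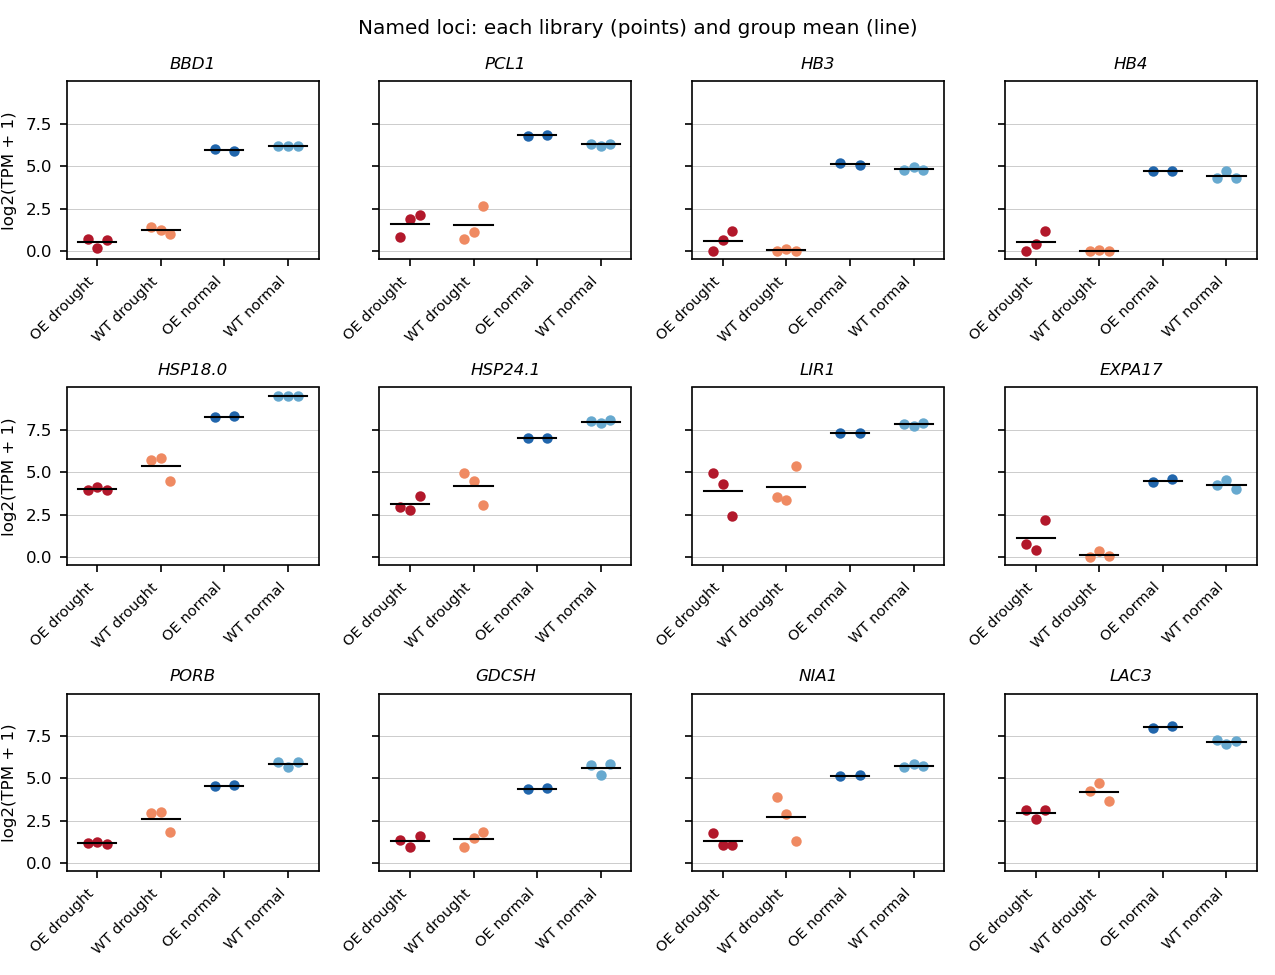
Level as log2(TPM + 1) of the 12 named loci in each library (points) with the mean of each group (line), in OE drought, WT drought, OE normal and WT normal. Every drought point lies below every normal point of its gene, and the spread between libraries is wider after drought.

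PORB, GDCSH and LIR1 belong to plastid and photosynthetic metabolism. PORB (LOC_Os10g35370, chromosome 10, 18900290 to 18904022), a protochlorophyllide oxidoreductase of chlorophyll synthesis, stood at 1.34, 1.39 and 1.21 TPM in OE drought and 6.76, 7.23 and 2.60 in WT drought, against 22.5 and 23.4 TPM in OE normal and 60.5, 50.7 and 60.9 in WT normal. OE lay below WT without overlap in both conditions, with a difference of -1.41 after drought (SE 0.34, adjusted p = 0.0399) and -1.28 in normal conditions (SE 0.09, adjusted p = 0.00126). Only the call after drought was lost when a library was left out, for each library but WT drought replicate 3 (adjusted p up to 0.127), and it was also lost under median-ratio scaling.

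GDCSH (LOC_Os10g37180, chromosome 10, 19894708 to 19896859), the H subunit of the glycine decarboxylase of photorespiration, stood at 1.63, 0.960 and 2.05 TPM in OE drought and 0.978, 1.79 and 2.64 in WT drought, against 19.7 and 20.7 TPM in OE normal and 53.9, 36.2 and 56.4 in WT normal. The drought groups overlapped (-0.12, SE 0.28, adjusted p = 0.795), and in normal roots OE was lower (-1.21, SE 0.20, adjusted p = 0.0111, and up to 0.0755 without OE normal replicate 1 or 2). LIR1 (LOC_Os01g01340, chromosome 1, 168470 to 170389), a light-regulated protein that in chloroplasts helps to attach ferredoxin-NADP reductase to thylakoids, stood at 30.5, 19.1 and 4.33 TPM in OE drought and 10.8, 9.40 and 41.3 in WT drought, against 160 and 159 TPM in OE normal and 234, 208 and 244 in WT normal. Its drought libraries were the most scattered of the 12 named loci in OE, and they overlapped between genotypes (-0.21, SE 0.78, adjusted p = 0.869). In normal roots it was lower in OE (-0.52, SE 0.07, adjusted p = 0.00684, and 0.0511 without OE normal replicate 2).

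Of 7 other photosynthesis genes tested, 5 fell after drought in OE and none rose, and 6 fell and 1 rose in WT. In normal roots 5 of the 7 were lower in OE than in WT and none was higher. LFNR1, a ferredoxin-NADP reductase at rank 215, averaged 1.63 TPM in OE drought and 3.27 in WT drought, against 15.0 in OE normal and 31.1 in WT normal. Markers of green tissue moved with these groups, but all 5 are among the 7 photosynthesis genes counted above and add no separate observation. Summed over CAB1R, CAB2R, RBCS, PORA and RCA they stood at 51.5 to 214 TPM in OE drought and 349 to 633 in WT drought, and at 348 to 352 in OE normal and 821 to 1150 in WT normal, with none listed at 0. Their part in the result was not tested.

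NIA1 (LOC_Os08g36480, chromosome 8, 23033230 to 23038596), a nitrate reductase, stood at 2.40, 1.13 and 1.09 TPM in OE drought and 14.2, 6.49 and 1.51 in WT drought, against 33.7 and 35.3 TPM in OE normal and 50.5, 56.8 and 52.1 in WT normal. The drought groups overlapped through WT drought replicate 3 (-1.41, SE 0.63, adjusted p = 0.156), and in normal roots OE was lower (-0.61, SE 0.06, adjusted p = 0.00282). Of 9 other nitrogen genes tested, 7 fell after drought in OE and 5 in WT, and none rose in either. GS2, a glutamine synthetase, averaged 29.1 TPM in OE drought and 97.4 in WT drought, against 272 in OE normal and 298 in WT normal.

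EXPA17 (LOC_Os06g01920, chromosome 6, 511855 to 512804), an expansin of root hair elongation, stood at 0.695, 0.380 and 3.55 TPM in OE drought and 0, 0.300 and 0.0716 in WT drought, against 20.4 and 23.8 TPM in OE normal and 17.8, 22.5 and 15.2 in WT normal. OE drought lay above WT drought without overlap, but the difference of 0.98 (SE 0.43, adjusted p = 0.154) did not pass. Of 12 other expansins tested, 2 were higher and 4 lower after drought in OE, and 1 was higher and 6 lower in WT.

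LAC3 (LOC_Os01g61160, chromosome 1, 35402795 to 35405309), a laccase, stood at 7.70, 5.09 and 7.83 TPM in OE drought and 17.91, 25.0 and 12.0 in WT drought, against 245 and 275 TPM in OE normal and 150, 130 and 145 in WT normal. OE was thus below WT after drought and above it in normal roots, with no overlap in either. The differences were -1.26 (SE 0.31, adjusted p = 0.0411) and 0.87 (SE 0.08, adjusted p = 0.00221). The call after drought was lost without any library but WT drought replicate 3 (adjusted p up to 0.138) and under median-ratio scaling, and the call in normal conditions held without each library.

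The comparison of OE with WT asked how these loci differed between the genotypes in each condition. It was tested with limma on the libraries of 1 condition, adjusted by the Benjamini-Hochberg method over 23699 loci. Any other difference between the OE and WT plants cannot be told apart from over-expression of OsNMCP1. The rule did not use this contrast, but it used the same libraries, so counts over the 150 loci are read only beside those over all loci tested. In normal roots 105 of the 150 were called, 35 higher and 70 lower in OE, beside 30.0% of all loci tested (17.8% higher, 12.2% lower). The shares among the 150 were 23.3% higher and 46.7% lower. All OE libraries lay below all WT libraries at 81 of the 150 (54.0%, beside 24.4% of loci tested) and above them at 41 (27.3%, beside 32.6%).

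Most of these differences in normal roots were small, as 14 of the 150 differed by at least 1, 3 of them higher and 11 lower. The median of the 150 was -0.21, beside 0.03 over all loci tested. The standard error was small too, with a median of 0.0689. Of the 105 called, 66 were called in every fit that left out 1 library. No share over all loci tested is given for the counts of 14 and 66, so they describe the 150 alone. When all 11 libraries shared 1 estimate of the spread, 6 members were called (4.0%, beside 1.76% of all loci tested). In that fit the wider spread of the drought libraries enters, as the median SD of log2(TPM + 1) over the 150 was 0.311 in OE drought and 0.463 in WT drought, against 0.0582 in OE normal and 0.0909 in WT normal.

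The calls in normal roots were then split by level. Among the 34 loci at 100 TPM or more in normal roots, 17 were higher in OE (50.0%) and 15 lower (44.1%), beside 22.6% and 27.8% of the other 1825 loci tested at that level. At 20 to under 100 TPM, 16 of 85 were higher and 45 lower (52.9%), beside 24.7% higher and 13.2% lower of 7179 others. Under 20 TPM, 2 of 31 were higher (6.45%) and 10 lower (32.3%), beside 16.0% higher and 9.95% lower of 5347 others.

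Abundant loci higher in OE in normal roots included 2 neighbour pairs on chromosome 7. LOC_Os07g04950 stood at 408 and 393 TPM in OE normal and at 188, 177 and 181 in WT normal, and was higher by 1.13 (SE 0.04, adjusted p = 0.000289). Its neighbour LOC_Os07g04930 was higher by 0.70 (adjusted p = 0.000715). LOC_Os07g40890 stood at 479 and 444 TPM in OE normal and at 198, 186 and 209 in WT normal, and was higher by 1.22 (SE 0.06, adjusted p = 0.000657). Its neighbour LOC_Os07g40870 was higher by 0.68 (adjusted p = 0.00278). After drought these loci were at 9.26, 12.1 and 14.2 TPM in OE and 18.09, 22.9 and 10.7 in WT for LOC_Os07g04950, and at 15.6, 13.7 and 13.7 TPM in OE and 24.8, 29.3 and 14.5 in WT for LOC_Os07g40890. The drought groups overlapped at both loci, and the differences of -0.46 (adjusted p = 0.32) and -0.59 (adjusted p = 0.175) did not pass.

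LOC_Os08g37300 had the highest level of any of the 150 in OE normal after LOC_Os07g34570. It stood at 948 and 977 TPM in OE normal and at 527, 471 and 494 in WT normal (0.95, SE 0.06, adjusted p = 0.000905), and at 28.0, 37.8 and 42.3 TPM in OE drought and 48.8, 60.7 and 32.8 in WT drought (-0.36, adjusted p = 0.368). Loci lower in OE in normal roots included LOC_Os06g03520, at 23.16 and 25.7 TPM in OE normal and 82.8, 74.8 and 86.1 in WT normal (-1.69, SE 0.08, adjusted p = 0.000526). LOC_Os09g26370, at 56.5 and 57.6 TPM in OE normal and 135, 140 and 141 in WT normal, was lower too (-1.27, SE 0.04, adjusted p = 0.000167).

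**Figure D4:**
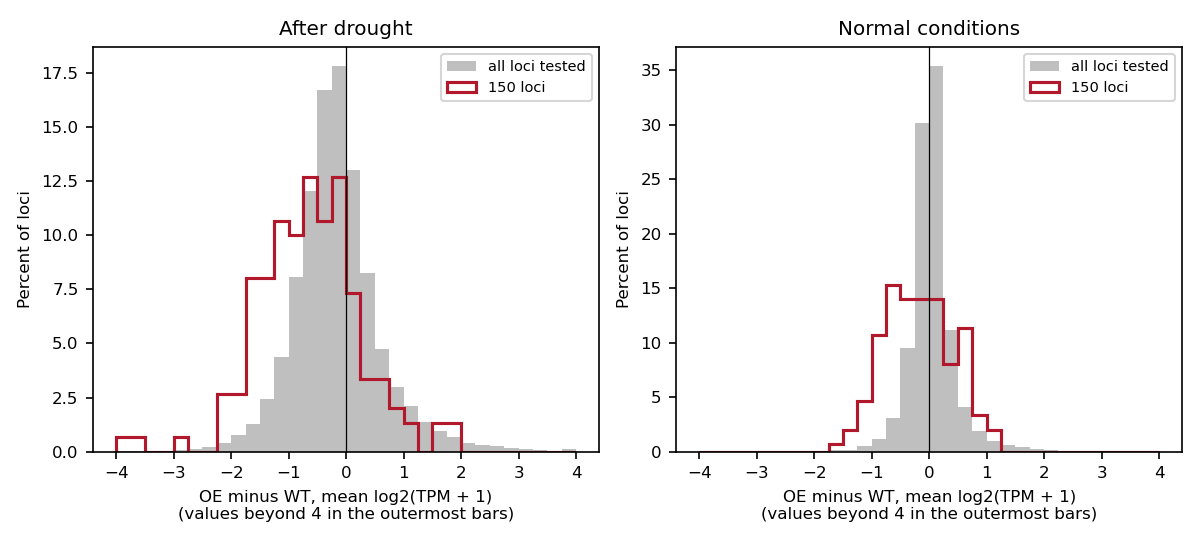
Percent of loci by the difference of OE from WT in mean log2(TPM + 1), after drought (left) and in normal conditions (right), for the 150 loci (red outline) and all loci tested (grey). After drought the red outline is shifted to lower values (median -0.63), and in normal conditions it is broader than the grey one.

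After drought 34 of the 150 were called between genotypes, 33 lower and 1 higher in OE, beside 14.6% of all loci tested (9.38% lower, 5.24% higher). The shares among the 150 were 22.0% lower and 0.667% higher. By level in normal roots, the lower share was not above that of other loci in every class. Under 20 TPM, 1 of 31 members was lower (3.23%), beside 9.54% of 5347 others, with medians of -0.173 and -0.264. At 20 to under 100 TPM, 24 of 85 were lower (28.2%), beside 792 of 7179 others, with medians of -0.731 and -0.199. At 100 TPM or more, 8 of 34 were lower (23.5%), beside 15.2% of 1825 others, with medians of -1.15 and -0.312. OE lay below WT without overlap at 61 of the 150 (40.7%, beside 27.7% of loci tested) and above at 7 (4.67%, beside 12.4%). The median difference was -0.63, beside -0.20 over all loci tested, and under median-ratio scaling -0.53 beside -0.02. In that scaling 23 of the 150 were lower (15.3%) and 1 higher, while over all loci tested 1172 were lower (4.95%) and 1674 higher (7.06%), against 2222 lower and 1242 higher without it.

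These counts rested on single libraries. Without WT drought replicate 3, 60 of the 150 were called, 59 lower and 1 higher, beside 26.1% of all loci tested. Without OE drought replicate 1, 10 were called (6.67%, beside 4.7% of all loci tested), and without OE drought replicate 2, 4 were called (2.67%, beside 2.73%). Without WT drought replicate 1 or 2, 8 were called each time (5.33%, beside 2.87% and 2.64%). In the fits that left out 1 library, 4 of the 34 were called every time, all of them lower in OE. At 57 of the 150 the difference was at least 1 in size, and 32 of these passed. No share over all loci tested is given for the counts of 4, 57 and 32, so they describe the 150 alone.

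The 4 were LOC_Os07g34570, LOC_Os04g05070, LOC_Os04g55600 and LOC_Os11g26390. LOC_Os07g34570 was lower in OE after drought (-3.73, SE 0.42, adjusted p = 0.0059) and in normal roots (-0.64, SE 0.08, adjusted p = 0.00535). LOC_Os11g26390 stood at 0, 0.0456 and 0.0569 TPM in OE drought and 2.41, 2.25 and 2.22 in WT drought (-1.67, SE 0.13, adjusted p = 0.00276), against 27.5 and 28.8 TPM in OE normal and 27.6, 31.7 and 28.4 in WT normal. The genotypes were nearly level at that locus in normal roots (-0.05, adjusted p = 0.62).

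LOC_Os04g55600 showed the same order at a higher level. It stood at 11.9, 7.09 and 6.78 TPM in OE drought and 47.0, 29.1 and 49.2 in WT drought (-2.16, SE 0.29, adjusted p = 0.00948), against 328 and 313 TPM in OE normal and 295, 322 and 298 in WT normal (0.07, adjusted p = 0.347). LOC_Os04g05070 stood at 0.454, 0.170 and 0.415 TPM in OE drought and 2.64, 2.67 and 2.78 in WT drought (-1.46, SE 0.16, adjusted p = 0.00564), against 16.0 and 14.7 TPM in OE normal and 25.4, 27.1 and 27.2 in WT normal (-0.75, SE 0.06, adjusted p = 0.00172). Each had OE drought libraries below every WT drought library.

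The largest gap between the drought differences of the genotypes was at LOC_Os05g12630, at 0, 0.291 and 1.06 TPM in OE drought and 46.2, 13.0 and 9.43 in WT drought, against 109 and 111 TPM in OE normal and 138, 149 and 144 in WT normal. OE was lower after drought (-3.78, SE 0.59, adjusted p = 0.0127, and 0.0564 without OE drought replicate 2). The 1 locus called higher in OE after drought was LOC_Os10g39890, at 1.82, 1.95 and 8.01 TPM in OE drought and 0, 0.265 and 0 in WT drought (1.96, SE 0.45, adjusted p = 0.0352), against 30.2 and 38.7 TPM in OE normal and 20.3, 26.5 and 19.4 in WT normal. That call was lost without OE drought replicate 1 or 2 or WT drought replicate 1 or 2 (adjusted p up to 0.112). In normal roots the locus was also called higher in OE (0.62, adjusted p = 0.046), a call that was lost without any 1 of 4 normal libraries (all but WT normal replicate 2, adjusted p up to 0.196) and under median-ratio scaling, FPKM or a pseudocount of 0.1. At LOC_Os10g39890 OE drought replicate 3 was the highest drought library, as it also was at LOC_Os07g31610 (0.765, 1.16 and 9.78 TPM in OE drought, 0.141, 0.226 and 0 in WT drought).

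Calls in both conditions were combined by locus. At 16 of the 150 OE was lower in both (10.7%, beside 2.2% of all loci tested), and at 10 it was higher in normal roots and lower after drought (6.67%, beside 1.53%). At 1, LOC_Os10g39890, it was higher in both (0.667%, beside 1.31%). A further 54 were lower only by the call in normal conditions (36.0%, beside 9.57%) and 24 higher (16.0%, beside 15.0%). By the call after drought alone 7 were lower (4.67%, beside 5.64%), and 38 were called in neither (25.3%, beside 60.8%). Besides LAC3, LOC_Os01g41200 was among the 10, at 0.120, 0 and 0.471 TPM in OE drought and 3.68, 2.09 and 2.29 in WT drought (-1.62, SE 0.23, adjusted p = 0.0108, and 0.0516 without OE drought replicate 2), against 67.3 and 65.8 TPM in OE normal and 32.9, 34.1 and 37.3 in WT normal (0.92, SE 0.06, adjusted p = 0.00105).

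**Figure D5:**
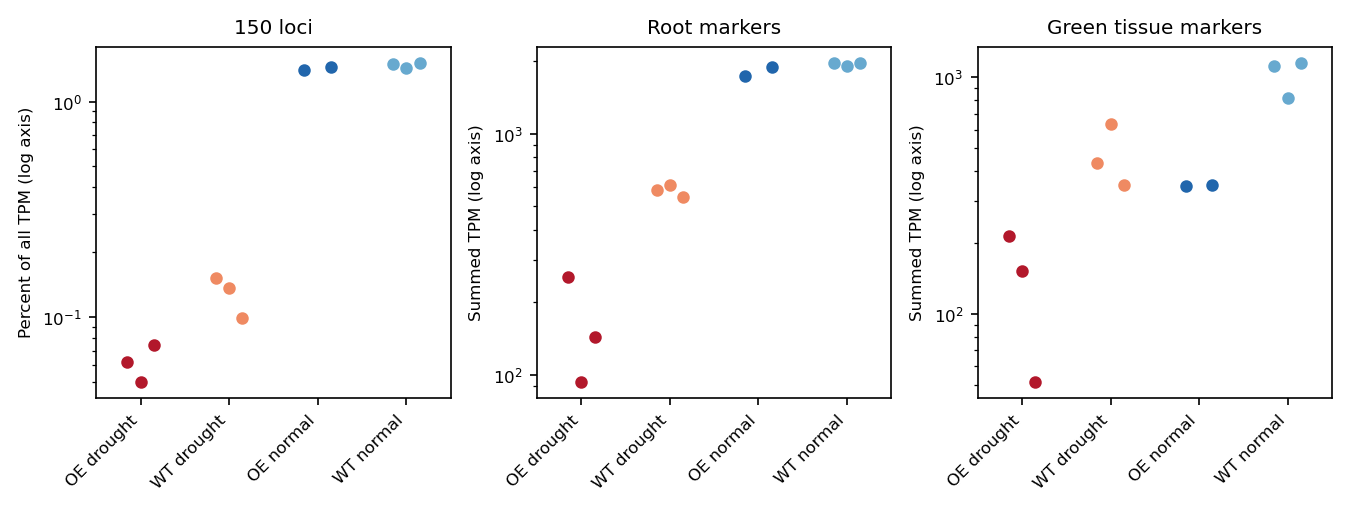
Share of all TPM held by the 150 loci and summed TPM of 4 root markers and 5 green tissue markers, per library, on log axes, in OE drought, WT drought, OE normal and WT normal. All 3 sums are lowest in OE drought, and the root markers and the 150 loci are nearly level between genotypes in normal roots while the green tissue markers are not.

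As a sum, root markers moved with drought and with the genotype after drought, as the 150 loci did. Taken singly, SHR1 and SCR1 were both called lower after drought in OE, but only 1 of them in WT. After drought 1 of them was called lower in OE than in WT. Summed over LSI1, LSI2, SHR1 and SCR1, the root markers stood at 93.8 to 254 TPM in OE drought and 547 to 613 in WT drought. In normal roots the sum was 1730 to 1890 in OE and 1910 to 1960 in WT. Their part in the result was not tested.

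Outside expression, the 150 loci were short. Their median length from start to end was 1384 bases, beside 3163 over all loci tested and 3540 over the other 14351 tested loci at or above the lowest member's mean in normal roots (8.04 TPM). Their level in normal roots is no such trait, as the rule requires a fall that loci of low normal level cannot reach. Its median was 40.1 TPM, beside 12.8 over all loci tested and 26.6 over those 14351 other loci. Chromosome 7 held 21 of them (14.0%, beside 7.65% of loci tested), and 54.7% lay on the plus strand, beside 50.5%.

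Of the 150, 25 lay within 50 kb of another, in 12 groups. The largest group had 3 loci on chromosome 1, LOC_Os01g65130, LOC_Os01g65140 and LOC_Os01g65169, which averaged 0.165, 0.780 and 0.255 TPM in OE drought and 0.617, 1.51 and 0.693 in WT drought, against 9.08, 20.4 and 19.0 in OE normal and 10.6, 22.8 and 20.7 in WT normal. None of the 3 was called between genotypes in either condition. The 284 tested loci next to a member that were not members had a median of -0.48 for the smaller fall of both genotypes, beside -0.23 over all loci tested, and 26.4% of them were at or below -1, beside 17.6%.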

How the data were processed

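RNA was measured in 11 root libraries, and 18 ATAC-seq samples of the series were not analysed here. TPM values deposited by the authors, summing to 1000000 per library over 55986 loci, were the measure used. FPKM deposited by the authors were an alternative, and the coverage deposited by the authors gave only the implied depth as its ratio to FPKM. Among the tools that the submitters' processing notes list, with no roles, are StringTie 1.3.6, STAR 1.5.2, SAMtools 1.9, FastQC 0.11.8 and fastp. The sources used here give no genome build, annotation or strandedness, so reads of overlapping or antisense loci cannot be told apart. No read counts were used, no counting interval is given, and the number of libraries limits the precision.

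Groups came from the sample labels. Loci reaching 1 TPM in 2 or more libraries were tested on log2(TPM + 1) with limma 3.58.1 in R 4.3.3 (mean-variance trend, two-sided, Benjamini-Hochberg adjustment over 23699 loci, threshold 0.05), on the libraries of 1 comparison. Differences on this scale understate changes of low loci. On simulated data with 100 loci changed at each size, 23499 loci were left unchanged. In normal conditions the fit of OE against WT recovered 90 and 97 at log2 changes of 1 and 2, with 38 false calls. After drought it recovered 20 and 59, with 11 false calls. In the drought libraries the chosen loci had a median log2(TPM + 1) of 1.14 to 2.2. Their median SD on this scale was 0.311 in OE drought and 0.463 in WT drought, beside 0.253 and 0.27 over all loci tested. The changed loci of the simulation were drawn only from loci of a higher mean log2(TPM + 1) over the libraries compared than any of these drought medians. The simulated rates are not split by level or spread, so recovery at the level and spread of the chosen loci after drought is not known. Tables and plots used Python 3.11.15, pandas 2.3.3, numpy 2.4.6 and matplotlib 3.10.9.

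Members, gene lists and tests were chosen with earlier results of these data known. Gene names were written from knowledge of the families, after identifiers and results had been seen, and accepted where the RefSeq table (assembly ASM3414082v1) held the symbol no more than 5 Mb away on that chromosome, at a length ratio between 0.9 and 1.1. A name whose length differed was accepted where its shift in position was within 5 kb of that of the nearest accepted locus. Of 214 loci written, 161 were accepted by length and position and 24 by position alone, among them the 4 members HB3, HSP24.1, LIR1 and EXPA17. The rule for loci given by name or identifier took all members with an accepted name, the 10 with the lowest rule value, the 10 most abundant in normal roots, the 5 with the lowest adjusted p in each direction of each comparison and the 5 with the largest gap between genotypes in each direction. Neighbours within 50 kb and the genes named from the lists that are no members were added after their values were seen. Lists without members among the 150 are not described. Alternatives were other pseudocounts (0.1 and 5), FPKM, median-ratio scaling, no filter or a filter of 5 TPM, 1 fit over 11 libraries, the replicate number as a block, and each library left out.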

Additional observations from a re-analysis of the deposited data

How the results depend on the processing

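Of the 150 loci, 79 were chosen again with a pseudocount of 0.1, 94 with 5, 74 from the OE contrast alone, and 124 to 146 when 1 library was left out. Sharing 1 spread over all 11 libraries, OE against WT in normal conditions called 417 loci (1.76%, 294 higher, 123 lower) and 6 of the 150 (4.0%, 1 higher, 5 lower). After drought that fit called 9144 loci (38.6%, 2861 higher, 6283 lower) and 70 of the 150 (46.7%, 5 higher, 65 lower). With no filter, normal conditions gave 3422 of 55986 loci (6.11%, 2251 higher, 1171 lower) and 57 of the 150 (38.0%, 21 higher, 36 lower). After drought the unfiltered fit gave 678 loci (1.21%, 370 higher, 308 lower) and 2 of the 150 (1.33%, 0 higher, 2 lower), so the 2 shares were close. Median-ratio scaling gave 1674 loci higher and 1172 lower after drought, and a pseudocount of 0.1 gave 2 of the 150 higher after drought (1.33%, beside 5.14% of all loci tested).

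Replicate numbers did not pair libraries, as deviations of same-numbered libraries from their group means correlated at -0.012 and 0.011 in normal conditions and at -0.04, 0.022 and -0.132 after drought. With the replicate number as a block, normal conditions gave 2909 loci (1849 higher, 1060 lower) and 46 of the 150 lower (30.7%, beside 4.47% of all loci tested). Drought gave 1373 loci (5.79%, 646 higher, 727 lower) and 22 of the 150 (14.7%, 0 higher).

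Leaving out 1 library at a time, normal conditions gave 4237 to 6231 loci (2517 to 3746 higher, 1554 to 2485 lower) and 72 to 111 of the 150 (24 to 40 higher, 48 to 71 lower). After drought, these fits gave 625 to 6191 loci (2.64 to 26.1%, 323 to 2479 higher, 253 to 3712 lower) and 4 to 60 of the 150 (2.67 to 40.0%, 0 to 3 higher, 4 to 59 lower). Of 35 members named by the rule and called in normal conditions, 26 were called in every such fit, and 4 of 13 after drought, with no change of sign. The cause of these differences was not tested. With 100 or 200 loci taken in place of 150, an alternative added after seeing the data, 30.0% and 23.5% were higher and 46.0% and 45.5% lower in normal conditions, and 1.0% and 0.5% were higher and 20.0% and 24.5% lower after drought.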
